A study of Arabidopsis thaliana with 12 samples.

Results

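The *Arabidopsis thaliana* genes AT4G22830, AT1G29040, AT5G05330 and AT5G38360 were followed in the *psae1* mutant and the wild type. Their probes are 4 of the 692 on the array that are annotated to a single gene, out of 3439 probes in all, and the genes were chosen because their intensities were low and fell deeply in *psae1*. The values that chose them are the ones given below, so the *psae1* and wild-type (WT) levels are a description and no test of that difference is offered. The array was hybridised with total RNA from 6 *psae1* samples and 6 WT samples, all of the Columbia 0 ecotype and numbered 1 to 6 in each genotype. The *psae1* plants lack the photosystem I protein PSI-E1, and the WT samples stand for the same ecotype without that lesion. Tissue, age, growth, treatment and the number of plants behind a sample are not given in the sources used here. PSAE1 has no single-gene probe among those used, and its level could not serve as a check of the labels.

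Photosystem I is the chlorophyll-protein complex that takes electrons from plastocyanin and passes them to ferredoxin on the stromal side of the thylakoid membrane. PSI-E is a small peripheral subunit on that side, near the place where ferredoxin docks, and in Arabidopsis it is encoded by the paralogues PSAE1 and PSAE2. The gene table lists the 4 genes as protein-coding under their locus tags alone, so no role is stated for them here. Of 13 photosystem I genes listed beside them, 1 could be tested. This was PSAN, a lumenal subunit, which rose in *psae1* with mean intensities of 5.62 in *psae1* and 4.64 in WT (limma adjusted p = 0.00015). Its difference was 0.52 on the centred log2 scale and 0.22 after quantile normalization (limma adjusted p = 0.028). With the samples that deviate together averaged, the limma adjusted p for PSAN was 0.044. Of 16 loci listed as HMG-box genes, 2 could be tested, AT5G05330 and AT2G34450, although the gene table gives neither that role. AT2G34450 rose in *psae1* by 0.38 ± 0.07 on the centred log2 scale (limma adjusted p = 0.0021), with mean intensities of 0.313 in *psae1* and 0.284 in WT. It did not pass without centring, at 0.14, or with the samples that deviate together averaged (limma adjusted p = 0.15 and 0.11).

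Values are linear intensities as deposited. The summed intensity per sample was 3436 to 3564 in *psae1* and 3611 to 3678 in WT. The median probe had an intensity of 0.477 to 0.507 in *psae1* and 0.576 to 0.599 in WT, so the *psae1* columns were dimmer as a whole, and between 153 and 168 probes were at 0 in *psae1* samples against 139 to 145 in WT samples. For log2 values, a 0 was taken as missing and each column was centred on its median. Within each genotype, sample 1 deviated together with 2, 3 with 4 and 5 with 6, with r of 0.33 to 0.61. These r run across probes, which are not independent, and no r between other samples of a genotype is given beside them. The 6 samples of a genotype may therefore hold fewer than 6 independent measurements. The number of arrays limits the precision. Samples were whole RNA extracts, in which fewer cells of a type and less RNA per cell cannot be told apart.

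Among the 3 genes with a value in every sample, AT4G22830 varied least in *psae1* on the log2 scale, with an SD of 0.23, against 0.20 in WT. Its intensity was 0.110, 0.104, 0.0849, 0.0770, 0.0892 and 0.111 in *psae1* 1 to 6, against 0.253, 0.285, 0.246, 0.279, 0.247 and 0.187 in WT 1 to 6. All 6 *psae1* samples lay below all 6 WT samples, and neither genotype had a sample at 0. The mean was 0.0962 ± 0.0144 in *psae1* and 0.250 ± 0.0349 in WT (SD, n = 6 each), so the *psae1* mean was 38.6% of the WT mean. On the centred log2 scale the difference was −1.13 ± 0.11 (standard error of the limma fit). Between samples of the same number the *psae1* value was 27.6% to 59.6% of the WT value.

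AT1G29040 was dimmer and more variable in *psae1*. Its intensity was 0.0195, 0.0626, 0.0343, 0.0921, 0.0564 and 0.0710 in *psae1* 1 to 6, against 0.102, 0.143, 0.153, 0.144, 0.160 and 0.195 in WT 1 to 6. The groups did not overlap, but the highest *psae1* value, in number 4, came close to the lowest WT value, in number 1. The mean was 0.0560 ± 0.0260 in *psae1* and 0.149 ± 0.0300 in WT (SD, n = 6 each), or 37.5% of the WT mean in *psae1*. The difference was −1.31 ± 0.31 on the centred log2 scale. The log2 values had an SD of 0.82 in *psae1* and 0.31 in WT.

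AT5G05330 had the lowest share of its WT level among the 3 genes with a value in every sample. Its intensity was 0.0401, 0.184, 0.0629, 0.144, 0.0376 and 0.121 in *psae1* 1 to 6, against 0.289, 0.284, 0.322, 0.309, 0.383 and 0.387 in WT 1 to 6. The *psae1* values fell into a lower set, in numbers 1, 3 and 5, and a higher set, in numbers 2, 4 and 6, and both sets lay below every WT value. The mean was 0.0983 ± 0.0604 in *psae1* and 0.329 ± 0.0454 in WT (SD, n = 6 each), or 29.9% of the WT mean in *psae1*. The difference was −1.75 ± 0.34 on the centred log2 scale, and the log2 SD was 0.97 in *psae1* against 0.21 in WT.

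AT5G38360 was listed at 0 in all 6 *psae1* samples. In WT 1 to 6 its intensity was 0.0548, 0.0884, 0.0914, 0.0836, 0.0719 and 0.0874, with a mean of 0.0796 ± 0.0139 (SD, n = 6) and no sample at 0. No fold is given against a group at 0, and the probe entered no fit, because a log2 value was missing in every *psae1* sample. The table did carry small values elsewhere. In each *psae1* column 37 to 43 probes had an intensity above 0 but under 0.0548, the lowest WT value of AT5G38360, so a 0 did not stand for everything below that level.

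**Figure D1:**
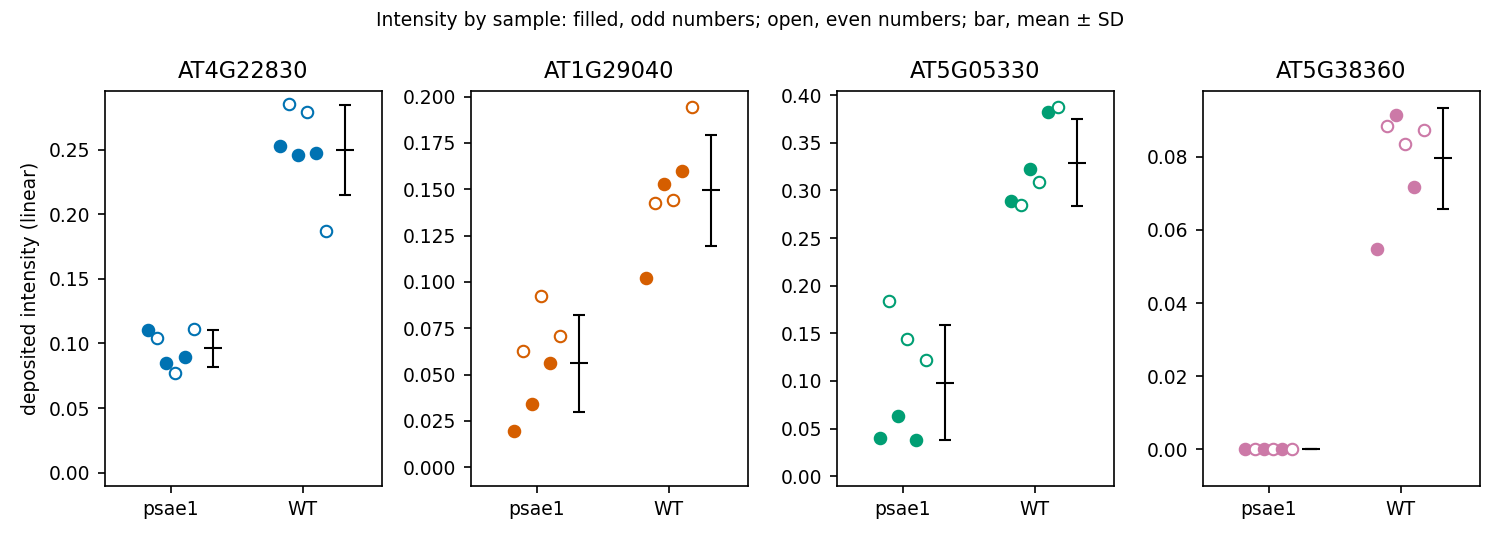
Deposited linear intensity (vertical axis) of the 4 genes in the 6 *psae1* samples (left) and the 6 WT samples (right), with filled points for odd and open points for even sample numbers, and the mean ± SD beside them. All *psae1* points lie below all WT points, AT5G38360 is at 0 in *psae1*, and odd and even *psae1* points separate for AT1G29040 and AT5G05330.

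Read against the whole array, a group of 6 *psae1* values below all 6 WT values was common. It was met by 883 of the 3320 probes with a value above 0 (26.6%), and by all 4 genes. The opposite order was met by 38 probes (1.14%). A fall of 2-fold or more on the centred log2 scale was rare, at 27 of 3279 tested probes (0.823%), and AT4G22830, AT1G29040 and AT5G05330 are 3 of these. The limma fit called 357 of 3279 probes lower in *psae1* at an adjusted p under 0.05 (10.9%), and 748 in either direction (22.8%). With the samples that deviated together averaged, 73 were called, 35 of them lower, and without centring 1745, of which 1634 were lower. Since the genes were chosen from this contrast, nothing is read from their places in those counts.

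The genes are not the deepest falls of the array as a whole. Counting each gene itself, 11 tested probes fell at least as far as AT5G05330, 15 as far as AT1G29040 and 21 as far as AT4G22830. Of the 27 probes that were 2-fold or more lower, 8 are annotated to several genes, 15 are not listed in the annotation and 4 to a single gene. The fourth single-gene probe is AT4G02580, which lies between AT5G05330 and AT1G29040 at −1.68 over the samples above 0. It was at 0 in *psae1* 2, 3 and 4, and at 0.00493, 0.0239 and 0.0321 in *psae1* 1, 5 and 6, against 0.0481 to 0.0774 in WT.

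Just outside the chosen genes among single-gene probes with a value in every sample were AT1G78790 at −0.85, AT5G39980 at −0.70 and AT-HF, a histidine synthesis gene, at −0.68. AT1G78790 had a mean intensity of 0.132 ± 0.0673 in *psae1* and 0.251 ± 0.0491 in WT (SD, n = 6 each). Just inside, AT4G22830 was at −1.13. No single-gene probe with a value in every sample lay between −0.85 and −1.13.

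The drop to 0 of AT5G38360 was met by few probes. Of the 3320 probes above 0 in some sample, 5 were above 0 in all 6 WT samples and at 0 in all 6 *psae1* samples (0.151%), and AT5G38360 was the 1 annotated to a single gene. No probe showed the reverse, with 0 in every WT sample and a value in every *psae1* sample. A further 28 probes were above 0 in every WT sample and at 0 in 1 to 5 *psae1* samples.

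All 4 genes were dim. By mean intensity over the 12 samples, 5.28% of tested probes were dimmer than AT4G22830, 1.98% than AT1G29040 and 8.94% than AT5G05330. By mean WT intensity over all probes, those at 0 included, 14.2% were dimmer than AT4G22830, 7.82% than AT1G29040, 21.8% than AT5G05330 and 5.38% than AT5G38360. In the dimmest 10% of tested probes, which holds 328, the median log2 difference was −0.081 and 17 probes were 2-fold or more lower (5.18%). Dim probes thus held 17 of the 27 falls of that size.

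Log2 differences magnify small changes at this level, and the linear differences give another view. *psae1* minus WT was −0.153 for AT4G22830, −0.0934 for AT1G29040, −0.231 for AT5G05330 and −0.0796 for AT5G38360. The median tested probe had a linear difference of −0.0782, with quartiles of −0.141 and −0.0276. On the linear scale, 1623 of all 3439 probes (47.2%) fell at least as far as AT5G38360 and 1391 (40.4%) as far as AT1G29040. For AT4G22830 it was 712 (20.7%), and for AT5G05330 307 (8.93%).

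Among dim probes, fewer fell as far on the linear scale. A linear fall cannot exceed a probe's own WT mean, so low levels by themselves limit these counts. AT5G05330, with a mean of 0.214 over the 12 samples, lies near 0.227, the highest level in the dimmest 10%. The dimmest 10% of tested probes had a median linear difference of −0.0324, and 27 of these 328 fell at least as far as AT5G38360, 18 as far as AT1G29040, 6 as far as AT4G22830 and 2 as far as AT5G05330. The nearest single-gene probes in WT level had smaller differences for AT5G05330 and AT1G29040. The genes were chosen for deep falls, and the neighbours come from the tested single-gene probes left over. That choice by itself favours smaller differences in the neighbours. Of the 4 nearest AT5G05330, which were AT4G20820, AT5G02710, AT5G53920 and AT5G67490, the linear differences were −0.0732 to −0.0492 and the log2 differences −0.11 to 0.0090. Of the 4 nearest AT1G29040, which were AT1G49870, AT4G13550, AT3G11960 and AT4G16060, the log2 differences ran from −0.27 to 0.46.

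Near AT4G22830 in WT level, AT3G15490, AT3G03590 and TPP2 were at 0.18, −0.17 and −0.079 on the log2 scale, while AT1G78790 was at −0.85. Near AT5G38360, AT5G03370 had mean intensities of 0.0419 in *psae1* and 0.0628 in WT. AT4G39230 had 0.0649 in *psae1* and 0.0969 in WT, and AT3G43610 had 0.0657 in *psae1* and 0.105 in WT. These 3 stayed above 0 in *psae1* at WT levels close to that of AT5G38360, whereas AT4G02580, the fourth, was at 0 in 3 *psae1* samples. The neighbours were drawn from tested probes, which have at least 3 values above 0 per genotype. A probe at 0 throughout *psae1* could not be among them, so nothing is read from this contrast.

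**Figure D2:**
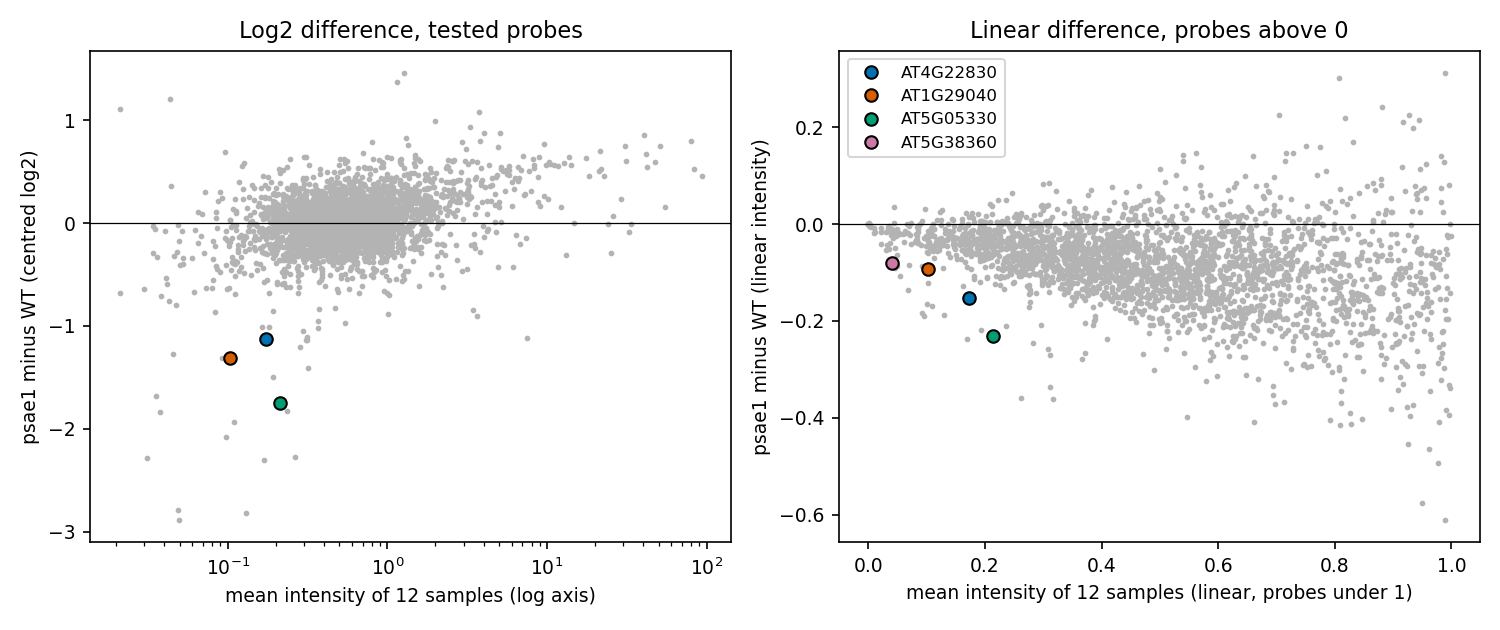
Left, *psae1* minus WT on the centred log2 scale against mean intensity (log axis) for the tested probes, with 3 of the genes coloured. Right, the linear difference against mean intensity for probes above 0 with a mean under 1, with all 4 genes coloured. The genes lie at the dim end, at −1.13 to −1.75 on the log2 scale and at −0.0796 to −0.231 on the linear scale.

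The size of the falls rested on how the overall dimming of *psae1* columns was treated. Centring on the median of log2 values treats the dimming as a factor. When it was treated as a constant amount, by shifting each column on the linear scale until the medians matched, the *psae1* columns were raised by 0.0484 and the WT columns lowered by 0.0484 on average. AT1G29040 then turned, at 0.070 ± 0.24 on the log2 scale, with mean shifted intensities of 0.104 ± 0.0294 in *psae1* and 0.101 ± 0.0351 in WT (SD, n = 6 each). AT4G22830 stayed lower at −0.47 ± 0.11, and AT5G05330 at −1.01 ± 0.22.

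AT5G38360 also turned under this shift, with means of 0.0484 in *psae1* and 0.0312 in WT, but its *psae1* values are then the shift alone. The shift between genotypes was larger than the median linear difference of the dimmest 10% of probes, given above. That median is itself limited by the floor at 0, below which no intensity lies. Adding 0.05 before taking log2 gave −0.79 for AT4G22830, −0.70 for AT1G29040 and −1.21 for AT5G05330. The kind of dimming that applies was not tested.

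**Figure D3:**
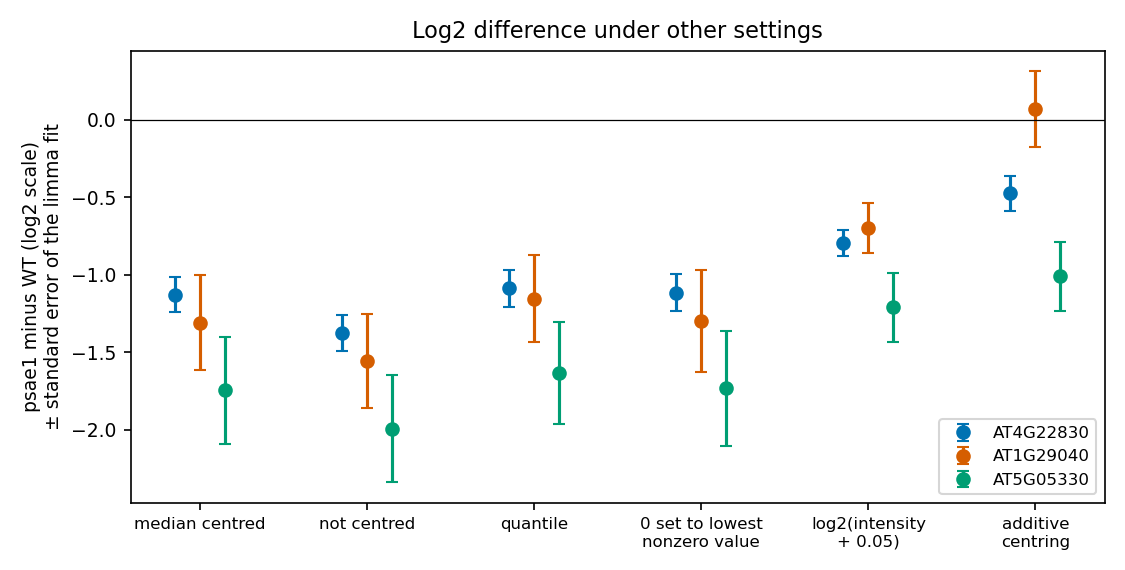
*psae1* minus WT on the log2 scale (vertical axis), with the standard error of the limma fit, for 3 genes under 6 treatments of scale and of values at 0. AT4G22830 and AT5G05330 stay below 0 throughout, and AT1G29040 is at 0.070 with additive centring.

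Odd and even sample numbers differed for 2 of the 4 genes. For AT5G05330 the mean intensity in numbers 1, 3 and 5 was 0.0469 in *psae1* and 0.331 in WT, and in numbers 2, 4 and 6 it was 0.150 in *psae1* and 0.327 in WT. The *psae1* value was 9.84% to 19.5% of its same-numbered WT value in odd numbers and 31.3% to 64.6% in even numbers. The log2 difference was −2.60 in odd and −0.89 in even numbers. The split lay in *psae1*, where odd minus even was −1.68 on the log2 scale, against 0.025 in WT.

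For AT1G29040 the mean intensity in odd numbers was 0.0367 in *psae1* and 0.138 in WT, and in even numbers 0.0753 in *psae1* and 0.161 in WT. The odd and even *psae1* values did not overlap, at up to 0.0564 in odd and from 0.0626 in even numbers, whereas the WT values overlapped. The log2 difference was −1.76 in odd and −0.85 in even numbers. AT4G22830 showed no such split, at −1.15 in odd and −1.11 in even numbers. AT5G38360 was at 0 in odd and even *psae1* samples alike, and averaged 0.0727 in odd and 0.0865 in even WT samples, which overlapped.

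A split of this size was uncommon. The odd minus even difference was 0.056 in size for the median tested probe and 0.12 for the median probe of the dimmest 10%. It reached 0.5 in 47 of 3278 probes (1.43%), it was as large as in AT1G29040 (−0.91) in 23, and as large as in AT5G05330 (−1.71) in 8. All 3 odd *psae1* values lay below all 3 even ones in 74 of 3320 probes (2.23%), and all 3 odd WT values below the even ones in 93 (2.8%). The opposite order, with all even values below all odd ones, was met by 40 probes in *psae1* and 87 in WT. AT1G78790, just outside the chosen genes, was split the same way, at −1.37 in odd and −0.33 in even numbers. AT5G39980 was also lower in odd numbers, at −1.03 against −0.38 in even numbers. So was AT4G02580, at −2.23 in odd and −0.60 in even numbers over the samples above 0. AT-HF was not, at −0.66 in odd and −0.69 in even numbers. The labels give odd and even numbers no meaning, and the split was known from earlier results, so it was not tested.

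**Figure D4:**
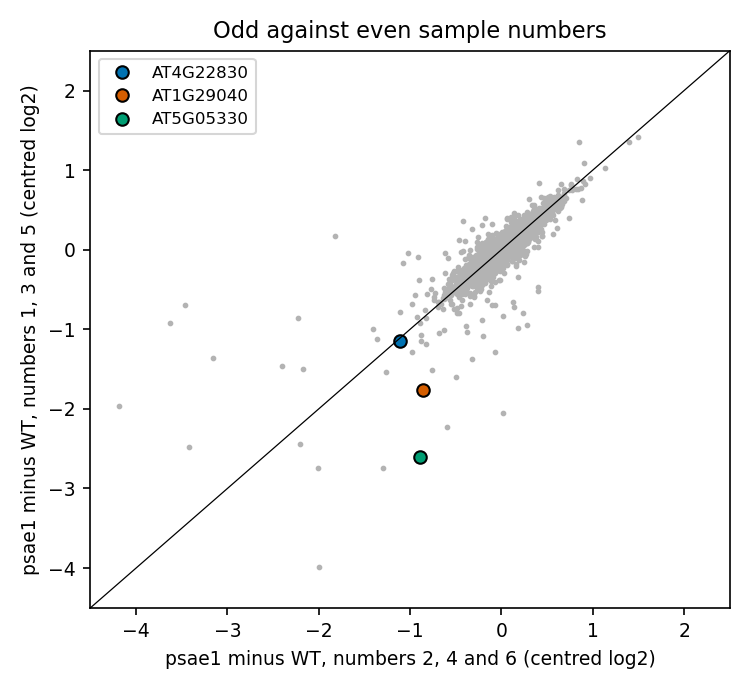
*psae1* minus WT on the centred log2 scale in numbers 1, 3 and 5 (vertical axis) against numbers 2, 4 and 6 (horizontal axis) for the tested probes, with the line of equal values. AT4G22830 lies on the line, and AT1G29040 and AT5G05330 lie below it, lower in odd numbers.

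Probes numbered near AT5G05330 included a very bright one and others that were lower in *psae1*. The probe numbered 1 below it, for AT3G09850, is among the brightest, at 48.2 ± 5.83 in *psae1* and 35.6 ± 1.73 in WT (SD, n = 6 each). Probe 3635, numbered 1 above it and annotated to 3 genes, was at 0 in all 6 *psae1* samples, against 0.107 to 0.180 in WT. Probe 3631, numbered 3 below it and annotated to 2 genes, had 0 to 0.106 in *psae1* and 0.243 to 0.344 in WT. Its *psae1* values overlapped between odd and even numbers, with 0.0157, 0.0834 and 0 in numbers 1, 3 and 5 and 0.0762, 0.106 and 0.0275 in numbers 2, 4 and 6. Within each pair of numbers that deviated together the odd value was the lower one, and the log2 difference was −2.75 in odd and −2.004 in even numbers, over the samples above 0. Intensities of AT3G09850 in *psae1* were 38.6, 46.2 and 54.0 in odd and 54.5, 47.6 and 48.3 in even numbers, which overlap.

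Across the array, tested probes numbered next to 1 of the 32 probes with a WT mean above 10 had a median log2 difference of −0.26, and 5 of 38 were 2-fold or more lower (13.2%). AT5G05330, chosen for its fall, is itself counted among these 38 and these 5. Among probes 4 or more numbers away the median was 0.0090, and 15 of 3120 were that low (0.481%). The limit of 10 was chosen after the values were seen. AT5G05330 is 1 number away from such a probe, AT5G38360 is 32, AT4G22830 is 90 and AT1G29040 is 329 away. How probe numbers map to places on the array is not given in the sources used here, and the part of bright neighbours in the fall of AT5G05330 was not tested.

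The probes numbered 1 below the other 3 genes were brighter than those genes, and their log2 differences lay nearer to 0 than those of AT4G22830 and AT1G29040. Probe 2988, next to AT4G22830, had mean intensities of 0.867 in *psae1* and 1.17 in WT, a log2 difference of −0.18. Probe 4469, next to AT1G29040, had 0.634 in *psae1* and 0.867 in WT, or −0.21. Probe 2720, next to AT5G38360, had 0.369 in *psae1* and 0.594 in WT, or −0.45. Probe 4466, numbered 4 below AT1G29040, was dimmer than that gene. Its mean was 0.00578 in *psae1*, where 3 samples were at 0, and 0.0926 in WT. It fell further than AT1G29040 on the log2 scale, at −2.79 over the samples above 0. Its linear fall was smaller, at −0.0869 against −0.0934 for AT1G29040.

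The single-gene probes most alike to each gene, by Pearson r of linear intensity over the 12 samples among 647 probes above 0 throughout, were all brighter, with log2 differences of −0.28 to 0.030. They were AT3G09050 (r = 0.94) and AT4G07670 (r = 0.93) for AT4G22830, and AT4G30150 (r = 0.94) and AT5G48130 (r = 0.93) for AT1G29040. For AT5G05330 they were AT1G31790 and AT3G58830 (r = 0.96 each), and for AT5G38360 AT4G07670 and AT2G32470 (r = 0.97 each). AT1G31790 averaged 0.641 in *psae1* and 0.922 in WT, the log2 difference of −0.28. The 12 points of each r share the genotype gap and the dimmer *psae1* columns.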

How the data were processed

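The deposited table gives a linear intensity per probe and sample. The authors' background and scaling steps are not given in the sources used here, and no value was negative. A 0 was taken as missing before log2, and columns were centred on their medians, which differed by 0.32 on the log2 scale. The 3279 probes with at least 3 values per genotype were fitted with limma 3.58.1 (R 4.3.3). Tests were two-sided and adjusted by Benjamini-Hochberg over all of them at 0.05. AT5G38360 did not pass this filter and the other 3 genes did. The procedure was checked on simulated data. The simulated samples were drawn independently of each other, from probes above 0 in every sample. That check therefore cannot speak to samples that deviate together or to values at 0. Plots were drawn in Python 3.11.15 (matplotlib 3.10.9).

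Probe names came from the platform annotation, and loci from a gene table of TAIR10.1, used for names and gene order alone. Each of the 4 genes is listed for 1 probe. Members, lists and tests were chosen with earlier results of these data known. Other genes were named by rule, as the 4 next deepest single-gene falls, the 2 nearest in WT level on each side, the 2 most alike and the probes 1 number away. Probes 3631 and 4466, those at 0 in all *psae1* samples and single-gene probes with more zeros in *psae1* were named after their values were seen. Lists of family members by product name could not be built, since the gene table gives no product names. The lists run were 16 HMG-box loci, 13 photosystem I genes and 5 genes of other tissues. The 5 genes of other tissues had 0 testable members.

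Same-numbered samples of the genotypes deviated together, with r of 0.23 to 0.42 in all 6 pairs. The numbers may therefore pair the samples, which comes from the values, not from the labels. No r between samples of different numbers across the genotypes is given beside these. The main fit used genotype alone and ignored any pairing. Sample number entered only the alternative called the replicate block. Nothing says that samples came from separate plants, so p-values measure a spread that may be technical.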

Additional observations from a re-analysis of the deposited data

How the results depend on the processing

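Additive centring was chosen after seeing the data. It moved AT4G22830 to −0.47 on the log2 and −0.0565 on the linear scale, and AT5G05330 to −0.134 on the linear scale. It reversed AT1G29040, to 0.070 and 0.00341, and AT5G38360 on the linear scale, to 0.0172. The odd minus even difference moved under it to −0.17 in AT1G29040 and −1.04 in AT5G05330, and turned to 0.028 in AT4G22830, within the spread of replicates. With 0.05 added before log2, AT4G22830 was at −0.79, and the odd minus even difference at −0.37 in AT1G29040 and −1.05 in AT5G05330. Without centring AT4G22830 was at −1.38, and 1745 probes were called, 111 higher and 1634 lower, against 391 higher and 357 lower among 748. Averaging numbers 1 and 2, 3 and 4, and 5 and 6 left 73 called. Apart from the shifts these settings make by construction, the cause was not tested. The replicate block gave 931 calls. It cannot move the 3 log2 differences, since each number holds a sample of both genotypes. Their standard errors under it were 0.13 for AT4G22830, 0.20 for AT1G29040 and 0.32 for AT5G05330. Without the block they were 0.11, 0.31 and 0.34. Leaving out single samples gave 610 to 761 calls. It gave log2 differences of −1.20 to −1.06 for AT4G22830, −1.48 to −1.03 for AT1G29040 and −1.97 to −1.53 for AT5G05330. Quantile normalization and setting 0 to the lowest nonzero value kept the 3 differences within the spread of replicates. No log2 alternative is given for AT5G38360, which was at 0 in *psae1*. Dimness limits all 4 genes, since detection limits are not recorded with the values.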

Other observations

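The other 4 probes above 0 in all WT samples and at 0 in all *psae1* samples were 620, with 2 genes listed, 3635, with 3, and 2764 and 3500, with none. Their mean WT intensities were 0.0897 ± 0.0217 for probe 620, 0.137 ± 0.0256 for probe 3635, 0.0418 ± 0.0264 for probe 2764 and 0.190 ± 0.0746 for probe 3500 (SD, n = 6 each). AT5G38360 lay second lowest of the 5 in WT.

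Among other single-gene probes with more zeros in *psae1* than in WT, AT5G27860 was at 0 in 1 *psae1* sample and 0 WT samples, with means of 0.0274 ± 0.0178 in *psae1* and 0.0556 ± 0.00782 in WT (SD, n = 6 each). AT1G21350, AT5G14590 and AT1G12800 were at 0 in all 6 *psae1* and in 3 WT samples, with WT means of 0.0176, 0.00300 and 0.00178.

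Within 5 genes on either side of each of the 4 genes in the genome, 1 gene had a single-gene probe. This was AT1G29070, 4 genes from AT1G29040, with mean intensities of 0.193 in *psae1* and 0.296 in WT.

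The spread of the 7 sets of 6 values above 0 held no sample far from the rest by Dixon's criterion at its 95% critical value. The largest gap was 0.599 of the range, for AT4G22830 in WT 6, at 0.187.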
